A study of Homo sapiens with 15 samples.

Results

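The lysosomal hydrolases and membrane proteins described here are 34 genes, chosen by name as a list of lysosomal enzymes and lysosomal membrane proteins. No measured value was used to pick them, though earlier results of these data were known when the list was chosen. All 34 had at least 1 probe set (a group of short probes against 1 transcript) annotated to that gene alone, out of 19775 genes so covered on Affymetrix U133 Plus 2.0 arrays. Where a gene had several probe sets, the brightest on average over the 15 arrays stood for it, and the others served as a check. The cells were of the SKOV3ip1 line, from a human epithelial ovarian cancer, in 5 conditions with 3 arrays each. The no-folate cells were kept for 7 days in medium lacking folate. The folate cells were kept for 7 days with folic acid at 2 to 10 nM (the labels print nm) and no antibody. The remaining conditions combined that folate medium with 24 hours of an antibody, which was the control antibody 004, the antibody labelled 003 or the antibody labelled MORAb003. MORAb-003 binds folate receptor alpha, and whether 003 is that same antibody is not said in the labels. Sample titles name the folate source by an abbreviation that the labels do not explain. Each condition was 1 culture that gave 1 RNA extract, hybridised as 3 aliquots. Every p-value between extracts below therefore compares RNA extracts and says nothing of the spread between cultures. Values are log2 expression as deposited by the authors.

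Lysosomes are acidic organelles in which hydrolases break down proteins, glycans and lipids that arrive by endocytosis and autophagy. Soluble hydrolases are mostly carried there by a mannose 6-phosphate tag, while heavily glycosylated proteins such as the LAMPs line the limiting membrane and transporters export the products. Cholesterol esters taken up with lipoproteins are cut by the acid lipase LIPA, and the freed cholesterol is passed from NPC2 to the membrane protein NPC1 for export. Many of these genes carry an E-box in their promoters, the letters read by TFEB and related transcription factors. Antibodies bound to internalised receptors can be delivered to this compartment.

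Promoter sequence was available from RefSeq (build GRCh38.p14) for 23 of the 34 members. The 250 bases before the start of the gene were searched on both strands for the E-box CACGTG, which is its own reverse complement. It stood in 9 members, namely CTSF, CTSA, CTSD, GAA, NEU1, LAMP1, CD63, MCOLN1 and CLN3. By comparison, 6.49% of the 27305 promoters in the table held it. The longer form TCACGTG, which contains the E-box, stood in 8 members and in 3.38% of all promoters. The full palindrome, an E-box preceded by GT and followed by AC, which contains both, stood in GAA and MCOLN1 and in 0.33% of all promoters. The members' promoters were also rich in G and C, with a median of 69.2% against 58.0% over all promoters, and the shares above were not matched for that. The stretches below run 5′ to 3′ on the strand of the gene from 10 bases before its first E-box to 10 after its last, with each E-box in capitals. That of MCOLN1 stops sooner after its last E-box, at the end of the 250 bases. LAMP1 is shown for its 5 copies, MCOLN1 and GAA for the palindrome, CTSA for its closely spaced pair, and NEU1 because it alone of the 9 was called in any comparison below.
LAMP1, chr13:113297037-113297226, plus strand: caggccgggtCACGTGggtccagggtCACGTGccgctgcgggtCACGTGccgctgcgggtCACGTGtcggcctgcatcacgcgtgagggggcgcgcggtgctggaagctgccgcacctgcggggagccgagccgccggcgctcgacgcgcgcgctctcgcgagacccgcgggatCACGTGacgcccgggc
MCOLN1, chr19:7522573-7522623, plus strand: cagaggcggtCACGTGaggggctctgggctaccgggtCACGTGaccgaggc
GAA, chr17:80101495-80101565, plus strand: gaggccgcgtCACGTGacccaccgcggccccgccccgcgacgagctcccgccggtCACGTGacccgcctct
CTSA, chr20:45891283-45891325, plus strand: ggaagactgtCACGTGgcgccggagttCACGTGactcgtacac
NEU1, chr6:31862932-31862957, minus strand: gctgcgtgatCACGTGggaggagatg
A match to these letters is a description of the sequence and does not show that a factor binds there.

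Some epithelial markers, but not all, were read at high levels in all 5 extracts. EPCAM, an epithelial adhesion molecule, had extract means of 13.41 to 13.73, and KRT18, a keratin, of 13.97 to 14.40. KRT7, another keratin, was lower at 8.35 to 8.83, as was ERBB2 at 8.90 to 9.23. Of 12 epithelial and ovarian markers 11 passed the filter on dim probe sets. MSLN did not, at 5.65 to 5.89, and MUC16 was near the filter, at 6.41 to 6.94. Leukocytes and macrophages are rich in lysosomal enzymes. Of 9 leukocyte markers 3 passed the filter, the list gave a summed level of 9.67 to 10.03 on all arrays, and PTPRC, which defines leukocytes, stayed below the filter. The 3 were ITGAM (6.74 to 7.01), CD3E (6.85 to 7.13) and AIF1 (7.59 to 7.84). Of 8 fibroblast and endothelial markers 7 passed, and the list summed to 10.55 to 10.68 with MORAb003 and 10.68 to 11.00 elsewhere. The brightest were COL1A1 at 8.77 to 9.35 and PECAM1 at 8.46 to 8.83, which overlap the range of KRT7. The epithelial list summed to 16.28 to 16.34 with MORAb003 and 15.72 to 16.18 elsewhere. The part of these shifts in the results below was not tested. Replicate 1 of the 004 extract stood apart. Its correlation with its own extract was at most 0.950 against 0.993 or more between the other arrays of an extract, and it gave the lowest reading of all 15 arrays for 20 of the 32 members tested. The share of all genes that read lowest on it was not counted, and its bright probe sets read low in general. Its 90th percentile over probe sets was 9.04, against 9.83 to 9.88 with MORAb003 and 9.58 to 9.79 on the remaining arrays. The median SD of a member over the 3 arrays was 0.34 in the 004 extract and 0.08 in the others. Called differences of members from 004 are given with and without its replicate 1. The means, SDs and ranges of extract means below include that array unless stated. The extracts also differed in the gap between 3′ and 5′ actin control probe sets, a usual measure of RNA integrity. The gap was 4.09 ± 0.16 (SD, n = 3 arrays) for no folate, 4.02 ± 0.10 for 003, 3.46 ± 0.31 for 004 (3.28 without its replicate 1), 3.24 ± 0.13 for folate alone and 2.42 ± 0.13 for MORAb003.

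Most members read highest in the MORAb003 extract, and the comparison of that extract with the 003 extract gave the most calls. MORAb003 gave the highest extract mean for 19 of the 32 members tested, a position it held for 32.6% of all 14369 genes tested, and the lowest for 5, against 39.8% of all genes. ARSB and GALC, the lysosomal enzymes that remove sulfate from dermatan sulfate and galactose from galactosylceramide, did not pass the filter. Their extract means were 5.77 to 5.97 and 5.67 to 6.18, below the filter at 6.60. A member was called when its adjusted p from limma was under 0.05 and its difference reached 1.5-fold. At least 1 of the 7 comparisons called 11 members, or 34.4% of those tested against 31.6% of all genes tested. They were CTSC, LGMN, GLA, NEU1, FUCA1, ASAH1, LIPA, NPC1, NPC2, LAMP2 and SCARB2. In each of them every call placed MORAb003 above another extract, or folate alone above the no-folate or 003 extract.

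**Figure D1:**
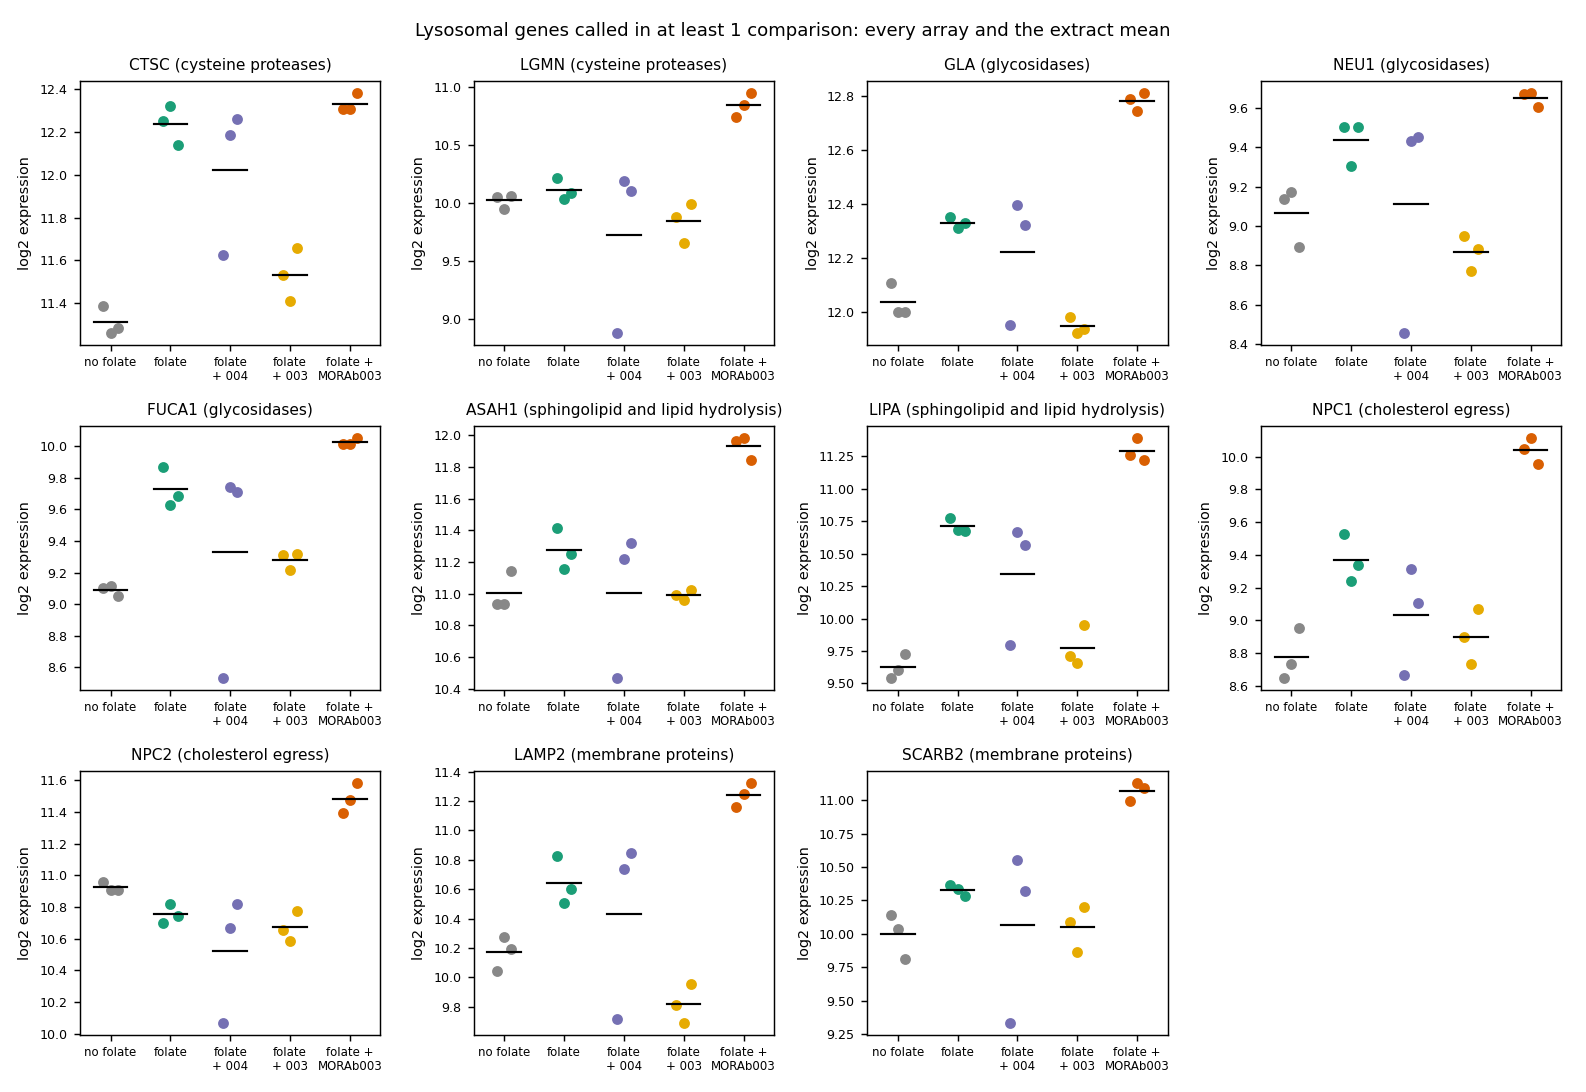
Log2 expression of the 11 called members on each of the 15 arrays, grouped by extract. Each point is 1 array and each bar the mean of 3. The low point in the 004 group is its replicate 1, and the MORAb003 points are the highest in each panel except for CTSC.

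Between the no-folate and folate extracts, 3 of 32 members were lower without folate and 0 were higher, that is 9.38% of the members against 2.71% of all genes tested, with 1.8% lower. The 3 were LIPA, CTSC and NPC1. The median difference over members was -0.06, and over all genes 0.01. Quantile normalization changed the sign of the member median, to 0.04, with 0.01 over all genes. Without replicate 1 of the 004 extract, which enters only through the shared estimate of the spread, the calls were 4 lower and 1 higher against 6.51% of genes. The additions were FUCA1 (-0.64) and, in the higher direction, CTSD (0.62, adjusted p from limma 5.33e-05 without that array and 0.0916 with it). After quantile normalization NPC1 was not called, while FUCA1 (-0.59) was called lower and CTSD (0.67) higher, with 4.48% of genes called. The actin gap was 4.09 and 3.24 in these extracts and its part in the result was not tested.

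The control antibody extract did not differ from the folate extract by any call. None of the 32 members and 0% of the 14369 genes passed limma's adjusted threshold, while 2 members and 1276 genes had an unadjusted p under 0.05. The median difference was -0.18 over members and -0.13 over all genes. Quantile normalization brought these medians to -0.03 and 0.00, and leaving out replicate 1 of 004 brought them to 0.00 and 0.01.

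The 003 extract was lower than the folate extract in 2 of 32 members (CTSC and LIPA) and higher in 0, against 2.02% of all genes, with 1.59% lower. The median difference was -0.12 over members and 0.03 over all genes, or -0.04 and 0.04 after quantile normalization. Without replicate 1 of 004, LAMP2 was called too, making 3 lower against 7.3% of genes. The count of members dropped to 0 when any 1 array of the folate extract, or replicate 1 or 2 of the 003 extract, was left out. The share of all genes called dropped in the same fits, to 0.856% without replicate 2 of the folate extract and to at most 0.0209% in the others. After quantile normalization LIPA and LAMP2 were called and CTSC was not, with 4.37% of genes called.

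The MORAb003 extract was higher than the folate extract in 4 of 32 members and lower in 0, against 6.58% of all genes, with 4.77% higher. The 4 were ASAH1, NPC1, NPC2 and SCARB2. The median difference was 0.19 over members and -0.04 over all genes, or 0.10 and -0.07 after quantile normalization. With no minimum size 8 members passed, against 11.1% of genes, and LAMP1 was the 1 member among them that was lower. Without replicate 1 of 004, LGMN and LAMP2 joined, making 6 against 10.4% of genes. After quantile normalization, with 7.12% of genes called, LGMN was called (0.64) and NPC1 was not (0.57), so the count stayed at 4. It dropped to 1 without replicate 2 or 3 of the folate extract or replicate 1 or 2 of the MORAb003 extract, where 2.97% to 3.29% of genes were called. It dropped to 2 without replicate 3 of the MORAb003 extract, where 4.69% were. The actin gap was 2.42 and 3.24 in these extracts, and its part in the result was not tested.

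Against the control antibody, the MORAb003 extract gave calls and the 003 extract gave none. The 003 and 004 extracts differed in 0 members by limma's adjusted threshold, against 3.47% of all genes, and 9 members had an unadjusted p under 0.05. Without replicate 1 of 004, CTSC (-0.69), LIPA (-0.85) and LAMP2 (-0.97) were lower with 003, against 6.34% of genes. LIPA and LAMP2 were also called after quantile normalization, against 3.92% of genes. The MORAb003 extract was higher than the 004 extract in 8 of 32 members and lower in 0, against 19.9% of all genes, with 17.6% higher. Without replicate 1 of 004 it was higher in 6, against 12.3% of genes, and FUCA1 and LAMP2 were no longer called. Without replicate 2 or 3 of 004, which leaves replicate 1 as 1 of a pair, the count was 14 and 13, against 28.4% and 30.3% of genes. After quantile normalization 6 were higher and CLN3 was lower (-0.68), against 18.4% of genes called.

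The 003 extract was lower than the MORAb003 extract in 11 of 32 members and higher in 0. That is 34.4% of the members, against 25.4% of all genes, with 17.6% lower. The median difference was -0.30 over members and 0.09 over all genes, or -0.15 and 0.12 after quantile normalization. Leaving out replicate 1 of 004 left the same count, against 26.7% of genes. After quantile normalization 9 of the 11 were called, NEU1 and FUCA1 dropped out, and CLN3 was called higher with 003 (0.60), against 25.4% of genes. The actin gap was 4.02 and 2.42, the widest contrast of the series apart from that between the no-folate and MORAb003 extracts, and its part in these differences was not tested.

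**Figure D2:**
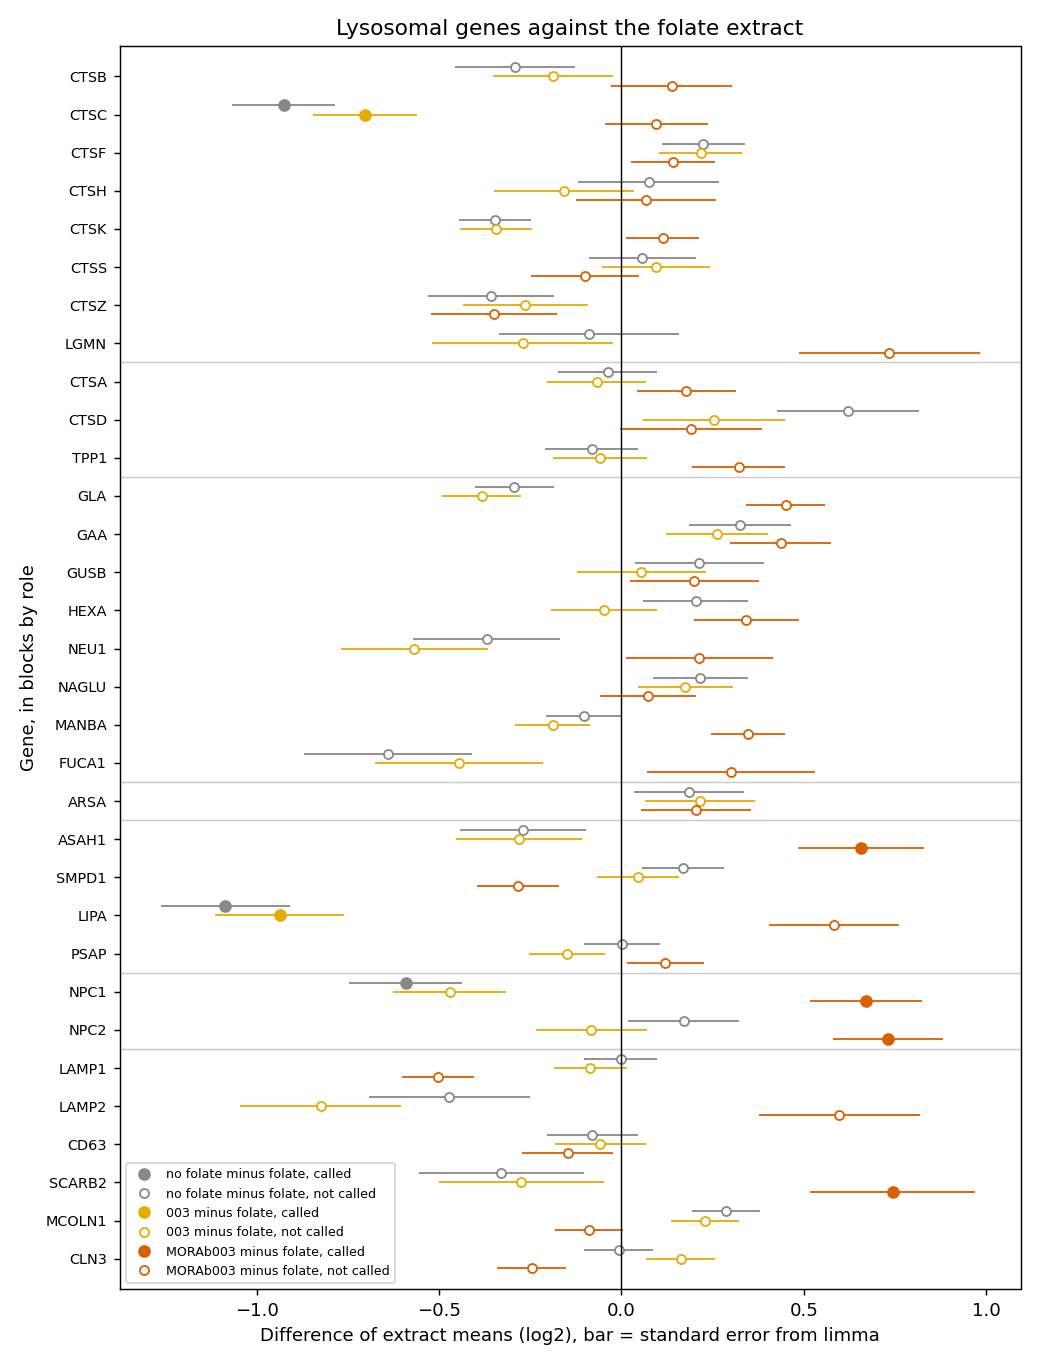
Log2 difference of each of the 32 tested members from the folate extract, in the no-folate, 003 and MORAb003 extracts, with members in blocks by role. Points are differences of extract means, bars are standard errors from limma, and filled points were called. The filled points are 3 without folate (CTSC, LIPA, NPC1) and 2 with 003 (CTSC, LIPA), all below 0, and 4 with MORAb003 (ASAH1, NPC1, NPC2, SCARB2), all above 0.

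NPC1 and NPC2, the 2 members of cholesterol egress, were both called in at least 1 comparison, where 31.6% of all genes were. LIPA, which frees the cholesterol they carry, is described before them. LIPA, the acid lipase that hydrolyses cholesterol esters and triglycerides in the lysosome, was lowest without folate and with 003 and highest with MORAb003. LIPA read 9.54, 9.61 and 9.73 without folate, 10.78, 10.68 and 10.68 with folate alone, 9.80, 10.67 and 10.57 with 004, 9.71, 9.66 and 9.95 with 003 and 11.26, 11.39 and 11.23 with MORAb003. The MORAb003 arrays lay above all others and the no-folate and 003 arrays below all folate arrays, with replicate 1 of 004 falling among the low ones. LIPA was 2.12-fold lower without folate than with it (log2 difference -1.09, SE 0.18, adjusted p = 0.00553). It was 1.92-fold lower with 003 than with folate alone (-0.94, adjusted p = 0.0204). It was 2.87-fold lower with 003 than with MORAb003 (-1.52, adjusted p = 3.9e-05). The MORAb003 extract exceeded the folate extract by 0.58 (adjusted p = 0.0496), just under the fold minimum at 1.498-fold, and the 004 extract by 0.95, or 0.67 without replicate 1 of 004.

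NPC2, the soluble lysosomal protein that carries freed cholesterol, stood apart in the MORAb003 extract alone. NPC2 read 10.96, 10.91 and 10.91 without folate, 10.70, 10.82 and 10.74 with folate alone, 10.07, 10.67 and 10.82 with 004, 10.65, 10.58 and 10.78 with 003 and 11.39, 11.48 and 11.58 with MORAb003. The lowest MORAb003 array exceeded the highest of the other 12, and the no-folate arrays lay above the folate ones without overlap. NPC2 was 1.66-fold higher with MORAb003 than with folate alone (0.73, SE 0.15, adjusted p = 0.00855). The difference from 004 was 0.97, or 0.74 without replicate 1 of 004, and that of 003 from MORAb003 was -0.81 (adjusted p = 0.000929).

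NPC1, the membrane protein that receives cholesterol from NPC2 and passes it out of the lysosome, followed LIPA in its order of extracts. NPC1 read 8.65, 8.73 and 8.95 without folate, 9.53, 9.24 and 9.34 with folate alone, 8.67, 9.32 and 9.10 with 004, 8.90, 8.73 and 9.07 with 003 and 10.05, 10.11 and 9.96 with MORAb003. All 3 MORAb003 arrays were above the rest, and the no-folate and folate arrays did not overlap. With MORAb003 NPC1 was 1.59-fold above folate alone (0.67, SE 0.15, adjusted p = 0.0149) and 2.01-fold above 004 (1.01, or 0.83 without replicate 1 of 004). It was 2.21-fold lower with 003 than with MORAb003 (-1.14, adjusted p = 0.000109). Without folate it was lower by 0.59 with an adjusted p of 0.0466. That last call held in 3 of 18 fits that left out an array or a replicate number.

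Among the 6 membrane proteins, LAMP2 and SCARB2 were called, whereas LAMP1, CD63, MCOLN1 and CLN3 were not. Of all genes tested, 31.6% were called in at least 1 comparison. LAMP2 is a glycoprotein of the limiting membrane whose splice forms serve in autophagy and autophagosome fusion. LAMP2 read 10.05, 10.28 and 10.20 without folate, 10.83, 10.51 and 10.60 with folate alone, 9.72, 10.73 and 10.85 with 004, 9.81, 9.69 and 9.95 with 003 and 11.16, 11.25 and 11.32 with MORAb003. The 003 arrays were the lowest apart from replicate 1 of 004, and the MORAb003 arrays the highest. LAMP2 was 2.68-fold lower with 003 than with MORAb003 (-1.42, SE 0.22, adjusted p = 0.000274). MORAb003 exceeded 004 by 0.81 (adjusted p = 0.0141), or by 0.45, under the fold minimum, without replicate 1 of 004. Against folate alone, LAMP2 differed by -0.83 with 003 (adjusted p = 0.06) and 0.60 with MORAb003 (adjusted p = 0.0974), and both were called without replicate 1 of 004.

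SCARB2 is the membrane receptor LIMP-2, which carries the enzyme glucocerebrosidase to lysosomes. SCARB2 read 10.14, 10.04 and 9.82 without folate, 10.36, 10.33 and 10.28 with folate alone, 9.34, 10.55 and 10.32 with 004, 10.09, 9.87 and 10.20 with 003 and 10.99, 11.13 and 11.09 with MORAb003. The MORAb003 arrays lay above all the rest, and the no-folate and 003 arrays lay below the folate ones. SCARB2 exceeded folate alone by 0.74 with MORAb003, at an adjusted p of 0.0493 (limma, SE 0.23). This call held in 4 of 18 fits that left out an array or a replicate number. The difference from 004 was 1.00 (0.64 without replicate 1 of 004), and 003 was lower than MORAb003 by 1.02 on the log2 scale (adjusted p = 0.00287).

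LAMP1, the other major glycoprotein of the limiting membrane, went the other way from LAMP2. Its extract mean was 12.94 ± 0.06 (SD, n = 3 arrays) with MORAb003, 13.36 ± 0.02 with 003, 13.30 ± 0.18 with 004, 13.44 ± 0.07 for folate alone and 13.44 ± 0.05 in its absence. All 3 MORAb003 arrays were below the other 12. The difference of MORAb003 from folate was -0.50 (SE 0.10, adjusted p = 0.00678), or 1.42-fold, under the fold minimum. The next LAMP1 probe set differed by -0.25 and the third by -0.82 in the same comparison. CLN3, a membrane protein mutated in juvenile neuronal ceroid lipofuscinosis, was likewise lowest with MORAb003, at 9.02 ± 0.09 against 9.26 to 9.42 elsewhere. The extract means of MCOLN1, the calcium channel of the lysosomal membrane, ran from 7.93 with MORAb003 to 8.31 without folate, and those of CD63, a tetraspanin, from 12.30 to 12.52.

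Of the 8 cysteine proteases, CTSC and LGMN were called in at least 1 comparison, as were 31.6% of all genes. CTSC, cathepsin C, removes dipeptides and activates granule serine proteases of leukocytes. CTSC read 11.39, 11.26 and 11.28 without folate, 12.25, 12.32 and 12.14 with folate alone, 11.62, 12.19 and 12.26 with 004, 11.53, 11.41 and 11.66 with 003 and 12.31, 12.31 and 12.38 with MORAb003. The no-folate and 003 arrays, together with replicate 1 of 004, lay below all others, and the folate and MORAb003 arrays overlapped. CTSC was 1.9-fold lower without folate (-0.93, SE 0.14, adjusted p = 0.00372) and 1.63-fold lower with 003 (-0.70, adjusted p = 0.0222) than with folate alone. It was 1.74-fold lower with 003 than with MORAb003 (-0.80, adjusted p = 0.000687) The difference of MORAb003 from folate alone was 0.10 (SE 0.14).

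LGMN, legumain, cuts after asparagine and processes other cathepsins. LGMN read 10.05, 9.95 and 10.06 without folate, 10.22, 10.03 and 10.09 with folate alone, 8.88, 10.19 and 10.10 with 004, 9.88, 9.65 and 9.99 with 003 and 10.75, 10.85 and 10.95 with MORAb003. The MORAb003 arrays lay above all others, and replicate 1 of 004 lay more than 1 log2 unit below its own replicates. LGMN was 2.01-fold lower with 003 than with MORAb003 (-1.0, SE 0.25, adjusted p = 0.00541). MORAb003 exceeded 004 by 1.12, or by 0.70 without replicate 1 of 004. The difference from folate alone was 0.73 (adjusted p = 0.072, or 1e-05 without replicate 1 of 004).

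The other 6 cysteine proteases were not called in any comparison. The extract means of CTSB, an abundant endopeptidase, ran from 10.66 without folate to 11.09 with MORAb003. Those of CTSS, known from antigen presentation, ran from 7.17 with MORAb003 to 7.54 with 004. CTSK, the collagenase of osteoclasts, had means of 7.68 without folate, 7.68 with 003 and 8.14 with MORAb003, a difference below 1.5-fold in each comparison. The means of CTSF ran from 8.15 to 8.42, those of the aminopeptidase CTSH from 10.52 to 10.94 and those of the carboxypeptidase CTSZ from 8.14 to 8.62, each lowest with 004. Without replicate 1 of 004, the 004 extract differed from folate by 0.06 for CTSF and -0.03 for CTSH. For CTSH the 003 extract differed from folate by -0.16, so neither gene was then lowest with 004.

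Among 8 glycosidases, GLA, NEU1 and FUCA1 were called, each in the comparison of 003 with MORAb003, where 25.4% of all genes were called. GLA, alpha-galactosidase A, trims terminal galactose from globotriaosylceramide. GLA read 12.11, 12.00 and 12.00 without folate, 12.35, 12.31 and 12.33 with folate alone, 11.95, 12.40 and 12.32 with 004, 11.98, 11.92 and 11.94 with 003 and 12.79, 12.74 and 12.81 with MORAb003. The MORAb003 arrays were the highest, and the folate arrays lay between them and the no-folate and 003 arrays without overlap. GLA was 1.78-fold lower with 003 than with MORAb003 (-0.83, SE 0.11, adjusted p = 7.98e-05). The MORAb003 extract exceeded folate alone by 0.45 (adjusted p = 0.0179), under the fold minimum.

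NEU1, the lysosomal sialidase, and FUCA1, which removes fucose, had wider spreads. NEU1 read 9.14, 9.17 and 8.89 without folate, 9.50, 9.31 and 9.50 with folate alone, 8.46, 9.43 and 9.45 with 004, 8.95, 8.77 and 8.88 with 003 and 9.67, 9.68 and 9.61 with MORAb003. The 003 arrays lay below all arrays outside the no-folate extract other than replicate 1 of 004, and the difference of 003 from MORAb003 was -0.78 (SE 0.20, adjusted p = 0.00701). FUCA1 read 9.10, 9.11 and 9.05 without folate, 9.87, 9.63 and 9.69 with folate alone, 8.53, 9.74 and 9.71 with 004, 9.31, 9.22 and 9.32 with 003 and 10.02, 10.02 and 10.05 with MORAb003. The no-folate arrays were the lowest apart from replicate 1 of 004, and MORAb003 the highest. FUCA1 was lower with 003 than with MORAb003 by 0.75 on the log2 scale (adjusted p = 0.0176). Its difference of 0.70 between MORAb003 and 004 became 0.30 without replicate 1 of 004.

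The other 5 glycosidases were called in no comparison. NAGLU, which removes N-acetylglucosamine from heparan sulfate, had extract means of 7.53 with 004 to 7.86 without folate. GUSB, beta-glucuronidase, had extract means of 11.24 to 11.62, and HEXA, the alpha subunit of beta-hexosaminidase, of 9.98 to 10.48. GAA, which digests glycogen, had means of 8.67 to 9.22. MANBA, beta-mannosidase, was 8.09 ± 0.06 (SD, n = 3 arrays) with MORAb003 and 7.55 ± 0.15 with 003, a difference of -0.54 (SE 0.10, adjusted p = 0.00109) that was 1.45-fold and so under the minimum. ARSA, which removes sulfate from sulfatide, had means of 7.36 to 7.70.

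Of the 4 tested members that act on sphingolipids and other lipids, LIPA and ASAH1 were called, against 31.6% of all genes in any comparison. ASAH1 is acid ceramidase, which splits ceramide into sphingosine and a fatty acid. ASAH1 read 10.93, 10.93 and 11.14 without folate, 11.41, 11.15 and 11.25 with folate alone, 10.47, 11.22 and 11.32 with 004, 10.99, 10.96 and 11.02 with 003 and 11.96, 11.98 and 11.84 with MORAb003. The MORAb003 arrays were separate from all others, and the no-folate, 003 and folate arrays lay close together. ASAH1 was 1.58-fold higher with MORAb003 than with folate alone (0.66, SE 0.17, adjusted p = 0.0275), and 003 was 1.92-fold lower than MORAb003 (-0.94, adjusted p = 0.000888). The difference of MORAb003 from 004 was 0.93, or 0.66 without replicate 1 of 004. SMPD1, acid sphingomyelinase, instead had its lowest mean with MORAb003, at 7.64 ± 0.15 against 7.93 to 8.10 in the other extracts. PSAP, the precursor of the saposins that present sphingolipids to their hydrolases, ran from 12.84 to 13.12.

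The 3 proteases outside the cysteine class were not called. CTSD, the aspartic protease cathepsin D, had a mean of 9.87 ± 0.10 (SD, n = 3 arrays) in the absence of folate and of 9.25 ± 0.16 for folate alone. With antibody it was 8.88 ± 0.54 for 004, 9.51 ± 0.09 for 003 and 9.44 ± 0.03 for MORAb003. It was thus highest without folate, against the direction of LIPA, CTSC and NPC1, with no overlap between no-folate and folate arrays. The means of CTSA, which protects NEU1 in a complex, ran from 11.07 to 11.41. Those of TPP1, which removes tripeptides, ran from 10.13 to 10.62. Over the 21 tested members that were never called, the extract means of a gene spanned a median of 0.42, from 0.21 in CD63 to 1.00 in CTSD. Over the 11 called members they spanned a median of 1.02, and a wider span there follows from the fold minimum of a call. The span of CTSD includes replicate 1 of 004. With that array the 004 extract differed from folate by -0.38 for CTSD, and without it by -0.06.

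The promoter letters can be set beside these values for the 21 tested members in the table, which leaves out the called members LGMN, ASAH1 and LAMP2. Of the 9 members with CACGTG in the promoter, 1 was called in any comparison, and of the 12 without it, 7 were. Over all tested genes in the table, 35.7% of 968 with CACGTG and 32.4% of 10449 without it were called in any comparison. The difference of 003 from MORAb003 had a median of 0.08 in the 9, from -0.78 in NEU1 to 0.42 in LAMP1, and of -0.77 in the 12. For MORAb003 against folate the medians were 0.14 and 0.31, and for no folate against folate 0.00 and -0.31. No test was made of this contrast.

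For some of the called members the order of the extracts was that of the actin gap. Ranked by that gap, the extracts run no folate, 003, 004, folate, MORAb003 from the widest to the narrowest. The extract means of 6 members (CTSC, CTSK, FUCA1, LIPA, NPC1 and SCARB2) rose at every step as the gap narrowed, as did 5% of all genes tested, and MCOLN1 fell at every step, as did 1.53%. Without replicate 1 of 004 the rising members were CTSC, CTSK, TPP1, FUCA1, LIPA and NPC1, against 4.26% of genes. NPC2 and LGMN, among others, did not follow this actin order, since their means without folate were above those with 003. The gap between 3′ and 5′ GAPDH control probe sets ordered the extracts otherwise. It was 2.49 for 003, 2.37 for no folate, 2.05 for 004 (1.89 without its replicate 1), 1.97 for folate alone and 1.21 for MORAb003. Outside 004, the LGMN means rose along the GAPDH order, at 9.84, 10.02, 10.11 and 10.85. The 6 members named first had higher means with 003 than without folate, so they did not rise at the first step of the GAPDH order. The part of RNA integrity in the differences was not tested.

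**Figure D3:**
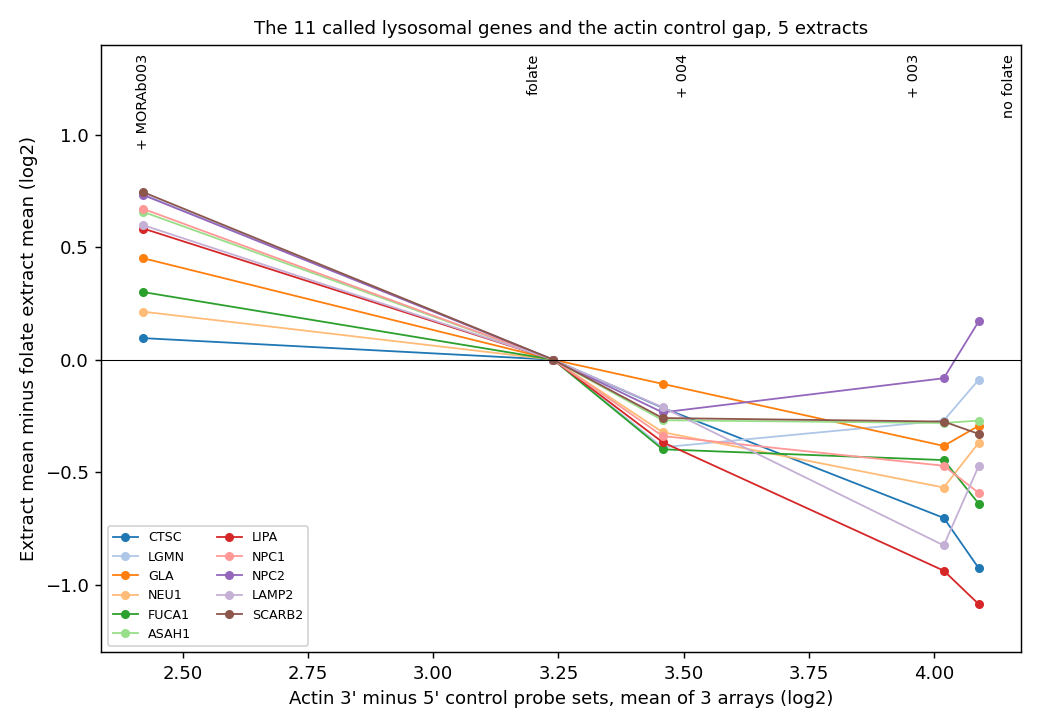
Extract mean minus folate extract mean (log2) of the 11 called members against the actin 3′ minus 5′ gap of the extract (log2, mean of 3 arrays). Each line is 1 gene over 5 extracts. All 11 lie above 0 in the MORAb003 extract, which has the narrowest gap, and NPC2 alone lies above 0 in the no-folate extract, which has the widest.

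Other probe sets of a gene gave a separate reading of the same arrays. For LAMP2, all 3 further probe sets were lower with 003 than with MORAb003 at an adjusted p under 0.05, by -1.43 to -1.97. For ASAH1 3 of 4 were, by -0.90 to -1.92, and the remaining one was dim and differed by 0.37. For SCARB2 2 of 3 were, at -0.52 and -1.73, and the other, above the filter, differed by 0.15. For CTSC 2 of 3 were, at -1.08 and -0.74, and the other differed by -0.08. For the no-folate comparison, however, the further CTSC probe sets differed by -0.23 to 0.18 against -0.93 in the brightest, and none passed an adjusted p of 0.05. The further probe sets of LIPA, NPC1 and FUCA1 all lay below the filter and did not repeat the difference of 003 from MORAb003. LGMN, GLA, NEU1 and NPC2 had 1 probe set each.

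**Figure D4:**
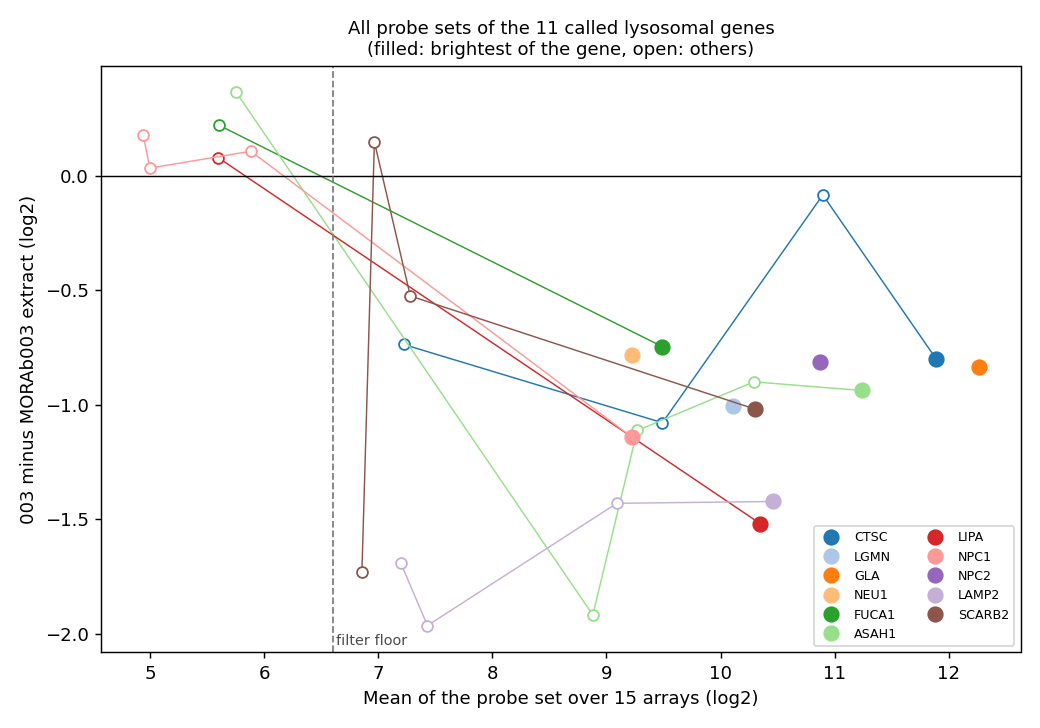
Log2 difference of 003 from MORAb003 for every probe set of the 11 called members, against the mean of the probe set over 15 arrays (log2). Filled points are the brightest probe set of a gene, lines join the probe sets of a gene and the dashed line is the filter. The LAMP2 points lie between -1.42 and -1.97, and the open points of LIPA, NPC1 and FUCA1 lie left of the filter between 0.03 and 0.22.

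The rest of the lysosomal gene set was covered by further lists. Against folate alone, 2.71% of all genes were called without folate and 2.02% with 003. Of 16 other hydrolases and cofactors tested, 1 was lower without folate and with 003 than with folate alone, namely CTSV, the cathepsin closest to CTSL, at -0.95 and -0.86. Of 12 other membrane proteins, LMBRD1, which helps export vitamin B12, was lower without folate (-0.77). With 003, LMBRD1 (-0.98) and LAPTM4A (-0.62) were lower. Of 15 proton pump genes, ATP6AP2, an accessory subunit, was lower without folate (-0.67). With MORAb003 against folate alone, none of these lists, nor the 11 genes of mannose 6-phosphate tagging and sorting or the 4 cathepsin inhibitors tested, had a called gene. Of 15 genes of the TFEB family and its control, 1 was called, where 6.58% of all genes were. It was FLCN, the folliculin that controls TFEB, higher by 1.12 (SE 0.25, adjusted p = 0.0127).

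Against the 004 extract, 003 differed in 1 gene of each list, with 3.47% of all genes called. CTSV (-0.70) and LMBRD1 (-0.83) were lower. ATP6V0B, a proton pump subunit (0.72), GGA1, a sorting adaptor (0.66), TFE3, a relative of TFEB (0.70), and CST3, the inhibitor cystatin C (0.64), were higher. When replicate 1 of 004 was left out, the lower genes differed by -0.98 and -1.02, and the 4 higher ones by 0.46, 0.50, 0.37 and 0.48, all under the fold minimum.

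MORAb003 was higher than 004 in 1 of the 16 hydrolases and cofactors, 4 of the 12 membrane proteins, 2 of the 15 proton pump genes, 1 of the 11 sorting genes, 4 of the 15 TFEB-group genes and 1 of the 4 inhibitors. No gene of these lists was lower, and 17.6% of all genes were higher. SLC17A5, the sialic acid exporter, differed by 1.99, OSTM1, the partner of a lysosomal chloride transporter, by 1.04 and SLC38A9, an arginine sensor, by 0.86. With that array left out these were 1.35, 0.61 and 0.44, the last under the fold minimum. FLCN differed by 1.51, FNIP1, its binding partner, by 1.19 and LAMTOR3, a scaffold subunit, by 1.06, or by 1.13, 0.70 and 0.58 without that array, the last again under it. SIAE, a sialic acid esterase, differed by 1.29 (0.84 without it) and IGF2R, the large mannose 6-phosphate receptor, by 1.01 (0.68 without it). The proton pump subunits ATP6V1C1 (0.70) and ATP6V1A (0.69) and the inhibitor CST3 (0.65) were also under the fold minimum without that array, at 0.30, 0.41 and 0.49.

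Between 003 and MORAb003, where 25.4% of all genes were called, the lists held genes in both directions. With 003, 2 of the 16 hydrolases were lower, SIAE (-1.12) and CTSV (-1.01). Of the 12 membrane proteins 5 were lower, led by LMBRD1 (-1.50), SLC17A5 (-1.33) and OSTM1 (-1.10), and 1 was higher, CLCN7, the lysosomal chloride transporter (0.68). Of the 15 proton pump genes 3 were lower, ATP6AP2 (-0.98), ATP6V1C1 (-0.78) and ATP6V1A (-0.62). Of the 11 sorting genes, IGF2R (-1.02) and the adaptor subunit AP3B1 (-0.81) were lower, NAGPA, which uncovers the mannose 6-phosphate tag (0.65), and the adaptor GGA3 (0.60) were higher, and the median of the list was 0.32. Of the 15 TFEB-group genes 3 were lower, FLCN (-1.38), LAMTOR3 (-1.21) and FNIP1 (-0.83), and 1 was higher, LAMTOR4 (0.60). None of the 4 inhibitors was called. CLCN7, GGA3 and LAMTOR4 were chosen after their values were seen, to complete these counts.

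A fit on 1 mean per culture set the 003 and MORAb003 cultures together against the folate and 004 cultures, and the no-folate culture against the same controls. It assumes that 003 and MORAb003 are 1 treatment and that the controls are equal, which the labels do not state. By limma, 0 of 32 members and 0% of all genes reached an adjusted p of 0.05 in either contrast. At an unadjusted p under 0.05 there were 0 members and 47 genes for the antibodies, and 1 member (CTSD, higher by 0.81) and 127 genes for no folate. The 004 mean in that CTSD value includes replicate 1, which read 8.25 against 9.21 and 9.16 on the other 004 arrays. In the antibody contrast the values of LIPA, NPC1 and LAMP2 are averages over the 003 and MORAb003 cultures, whose separate levels are given above.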

How the data were processed

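Messenger RNA of 5 cell cultures was read on 15 arrays, 3 aliquots of 1 extract each. Total RNA was extracted with Trizol and made into biotinylated cRNA, per the labels' protocols. The authors deposited log2 values per probe set, from 4.00 to 15.5 with array medians of 6.53 to 6.67. How they summarised and normalized the probes is not given in the sources used here, and a constant added before the log would make differences of dim genes too small. Values were used as deposited. Symbols came from the platform annotation, updated by Entrez identifier for 41037 of 41091 probe sets with 1 symbol. Another 1801 carried several symbols, 11721 none, and 62 were controls, all left out. A gene was tested if 1 extract mean reached 6.60, the median of all values outside control probe sets. Extracts were compared with limma 3.58.1 (lmFit, eBayes) in R 4.3.3, as 5 group means with 10 residual degrees of freedom and Benjamini-Hochberg adjustment over 14369 genes. Calls needed an adjusted p under 0.05 and 1.5-fold. The culture-level fit had 2 residual degrees of freedom. Every called member is given by array, the other members by range, and of each further list up to 3 called genes per comparison, those with the largest differences. Members and lists were chosen with earlier results of these data known. Alternatives are given in the closing section. The number of arrays limits the precision, as does 1 culture per condition.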

Additional observations from a re-analysis of the deposited data

Results flagged for a closer look

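The extracts with the antibodies labelled 003 and MORAb003 differed for 11 members by the limma test of 1 extract against the other. Each extract came from 1 culture, so antibody and culture cannot be told apart here. That is 34.4% of the members tested, and 25.4% of all genes were called in the same comparison. The value is the log2 level with 003 minus that with MORAb003, over 3 arrays each. It was -1.52 for LIPA, -1.42 for LAMP2, -1.14 for NPC1, -1.02 for SCARB2, -1.0 for LGMN, -0.94 for ASAH1, -0.83 for GLA, -0.81 for NPC2, -0.80 for CTSC, -0.78 for NEU1 and -0.75 for FUCA1. In each of the 11 all 3 arrays with 003 lay below all 3 with MORAb003. The 11 were called on these same arrays, so the lack of overlap is no separate support. The actin gap was 4.02 with 003 and 2.42 with MORAb003, and its part in these values was not tested.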

How the results depend on the processing

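Of 83 counts of called members under settings that left no array out one at a time, 67 equalled the reported count or lay within 1.5 times of it. Many of these were matches of 0 with 0. For 004 against folate and the culture-level contrasts, 0 genes were called in every such setting, so the matches there say nothing of stability. The count for 003 against 004 was also 0 except after quantile normalization. For no folate against folate the count was 0 with a gene's probe sets averaged, 1 at a 2-fold minimum, 0 on the arrays of the first array date and 5 on the 6 arrays compared. Over all genes these settings called 192 of 12520, 64 of 14369, 0 of 14631 and 915 of 13742. For 003 against folate the member count was 0 with probe sets averaged, 0 at 2-fold and 0 on the first date. Over all genes 172 of 12520, 58 of 14369 and 0 of 14631 were called. For MORAb003 against folate the member count was 8 with no fold minimum, 0 at 2-fold and 0 on the first date. The genes called were 1600 of 14369, 240 of 14369 and 23 of 14631. For 003 against 004 the member count was 2 after quantile normalization, with 563 of 14357 genes called. For MORAb003 against 004 the member count was 18 with no fold minimum, 3 at 2-fold and 0 on the 6 arrays compared. The genes called were 5046 of 14369, 1121 of 14369 and 25 of 14162. For 003 against MORAb003 the member count was 20 with no fold minimum and 5 at 2-fold, with 6412 and 1430 of 14369 genes called. Apart from the settings that change the fold minimum, the cause was not tested. Leaving out 1 array or replicate number gave 0 to 5 members for no folate against folate, 0 to 0 for 004 and 0 to 3 for 003 against folate, and 0 to 7 for MORAb003 against folate. It gave 0 to 4 for 003 and 3 to 14 for MORAb003 against 004, 4 to 12 for 003 against MORAb003, and 0 to 0 in the culture-level contrasts. Over all genes the same fits called 0 to 921, 0 to 0, 0 to 1032 and 2 to 1745 against folate, in that order. They called 0 to 1179 for 003 and 599 to 4405 for MORAb003 against 004, and 1349 to 3877 for 003 against MORAb003. In the culture-level contrasts they called 0 to 0 genes. Within each array date all 28 called differences kept their direction, but the same arrays had entered the calls, so this was no separate check. The second date held 1 array of each extract. The filters on dim probe sets, the array date as a block and another variance prior moved no count by over 1.5 times. No filter, the date block and the other prior did end the calls of NPC1 without folate (adjusted p = 0.0548, 0.0546 and 0.057) and of SCARB2 with MORAb003 against folate (0.0597, 0.0604 and 0.0513).

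Replicate numbers did not pair the samples, since same-numbered arrays deviated with correlations of -0.545 to 0.524 over 30 pairs, 8 of them over 0.1. The replicate block gave 2, 0, 2, 3, 0, 8 and 11 called members in the order of the comparisons above, and ended the calls of NPC1 without folate (adjusted p = 0.0699) and of SCARB2 with MORAb003 against folate (0.0633). Over all 14369 genes tested, the block gave 327, 0, 224, 887, 448, 2824 and 3646 calls in the same order.

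Of 54 differences read from other probe sets of the called members, 19 reversed, 14 of them in probe sets whose mean lay below the filter. For no folate against folate these were CTSC at 0.11 and 0.18 and LIPA at 0.0077. For MORAb003 against folate they were ASAH1 at -0.22, NPC1 at -0.16 and SCARB2 at -0.13. For MORAb003 against 004 they were FUCA1 at -0.76, ASAH1 at -0.30, LIPA at -0.35, NPC1 at -0.051 and -0.33 and SCARB2 at -0.26, and the average of the FUCA1 probe sets gave -0.029. For 003 against MORAb003 they were FUCA1 at 0.22, ASAH1 at 0.37, LIPA at 0.079, NPC1 at 0.11, 0.034 and 0.18 and SCARB2 at 0.15.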
